A study of Homo sapiens with 18 samples.

Results

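The genes described here are 9 protein factors that start or drive the elongation of protein synthesis on cytosolic ribosomes, followed through ribosome footprints and mRNA of human cells with and without an intact UFM1 system. They were chosen by 10 Ensembl transcript IDs, given as ENST00000316292 and ENST00000309268 for EEF1A1, ENST00000309311 for EEF2, ENST00000329251 for EEF1G, ENST00000293831 for EIF4A1, ENST00000318607 for PABPC1, ENST00000256383 for EIF2S1, ENST00000369144 for EIF3A, ENST00000360876 for EIF3B and ENST00000450253 for EIF4E. Each ID was checked against the deposited length, which had to equal the length of the named protein less 20 residues in the footprint tables and less 19 in the mRNA tables, and all 10 IDs met it. The tables held 26679 footprint entries and 98334 mRNA entries per library. Both EEF1A1 IDs carried the same counts in every library, so they were treated as 1 feature, and the 10 IDs stand for 9 genes.

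The cells were HEK293, a human embryonic kidney line, in 3 forms: unedited cells (WT), a clonal line with Cas9 knockout of UFM1 (UFM1-KO) and a clonal line with Cas9 knockout of UFSP2 (UFSP2-KO), all grown in DMEM with serum and no further treatment. UFM1 is a small modifier, related to ubiquitin, that cells attach to the ribosomal protein RPL26, and the protease UFSP2 takes it off again. Cytosolic ribosomes came from a digitonin lysate, membrane-bound ribosomes from a Triton lysate of the pellet left by digitonin, and mRNA from whole cells. Each of the 9 groups held 2 libraries, called a and b, and each knockout is 1 clone, so a knockout and any other difference of its clone cannot be told apart.

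Translation begins when eIF4E binds the cap of an mRNA, the helicase eIF4A unwinds the leader, eIF2 brings the initiator tRNA and eIF3 holds these parts to the small ribosomal subunit, while poly(A)-binding protein joins the tail to the complex at the cap. During elongation eEF1A carries each aminoacyl-tRNA to the ribosome, the eEF1B complex recharges eEF1A with GTP, and eEF2 moves the ribosome along the mRNA by a codon. All of these are soluble proteins without a signal sequence. EEF1A1 and EEF2 are textbook examples of TOP mRNAs, a class that begins with a C and a run of pyrimidines and whose translation is tuned by growth signals.

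The start sites are shown because EEF1A1, EEF2, EEF1G and EIF3B were the 4 genes whose footprints differed between the knockouts by the test below, and EIF4A1 is a gene whose levels were close. The windows are 50 bases of the RefSeq promoter table on GRCh38.p14, with 30 bases before and 20 from the annotated start, read 5′ to 3′ on the strand of the gene. Capitals mark the start base or, where present, the run of pyrimidines that begins with C at the start site. The table had windows for 7 of the 9 genes, and PABPC1 and EIF3A were not in it. EEF1A1 lies at chr6:73521013-73521062 on the minus strand, EEF2 at chr19:3985444-3985493 on the minus strand, EEF1G at chr11:62573872-62573921 on the minus strand, EIF3B at chr7:2354797-2354846 on the plus strand and EIF4A1 at chr17:7572795-7572844 on the plus strand. The EIF3B start in this table lies downstream of the first base of that gene, so another start further upstream is annotated too.
EEF1A1: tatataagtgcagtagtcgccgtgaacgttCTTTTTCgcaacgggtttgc
EEF2: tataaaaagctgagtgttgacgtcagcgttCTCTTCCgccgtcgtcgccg
EEF1G: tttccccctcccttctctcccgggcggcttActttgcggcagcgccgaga
EIF3B: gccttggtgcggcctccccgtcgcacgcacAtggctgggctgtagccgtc
EIF4A1: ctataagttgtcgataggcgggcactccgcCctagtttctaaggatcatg

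A C at the annotated start followed directly by at least 5 bases that are each C or T, on the strand of the gene only, was found in 2 of the 7 windows, those of EEF1A1 and EEF2, and in 1062 of all 35116 promoters of the table (3.02%). Both runs were 7 bases long. The same 2 windows were the ones with TATAAA or TATATA on the strand of the gene in the 40 bases before the start, 30 bases upstream in each, against 3.31% of all promoters. By a looser rule, with the pyrimidine run beginning within 10 bases of the start, 7288 promoters (20.8%) matched. The windows of the genes here were not scored by that rule. The motifs were chosen with the results below known, and a match describes these letters only.

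Over all deposited entries, library totals ran from 2848544 to 11388755 counts in the membrane fraction and from 1393032 to 6666021 in the cytosol. For mRNA they ran from 37451244 to 68675420. Over merged features, described below, they were 1920575 to 7657808 (membrane), 919295 to 4341513 (cytosol) and 13567961 to 25039544 (mRNA). The factors were deeply covered: EEF1A1 had 14806 to 99741 footprint counts per library, and the gene with the fewest, EIF4E, had 56 to 379. All 9 genes passed the filter on low counts in every comparison. Levels below are normalised counts in the CPM unit of edgeR after TMM scaling, which are shares of a library and not amounts per cell, so fewer cells with an mRNA and less of it per cell cannot be told apart. Log2 differences have a standard error (SE), and calls used the quasi-likelihood test of edgeR at a Benjamini-Hochberg adjusted p under 0.05 over all features of the comparison. Transcripts of UFM1 and UFSP2 and markers of the fractions were not analysed here, so neither the knockouts nor the purity of the fractions was checked.

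Per coding length, the elongation factors and EIF4A1 had the most footprints of the 9 genes in WT cells. These levels are not divided by mRNA, so they do not rank how heavily each message was translated. EEF1A1 stood at 31670 ± 245 CPM per 1000 codons in the membrane fraction (SD, n = 2) and at 35016 ± 2181 in the cytosol. EEF2 followed in the membrane fraction with 10268 ± 778, ahead of EIF4A1 with 7854 ± 381 and EEF1G with 3473 ± 17.99. In the cytosol EIF4A1, at 11603 ± 1011, stood above EEF2, at 7343 ± 187. The other initiation factors and PABPC1 were lower, and their membrane values were 845 ± 96.0 for PABPC1, 527 ± 19.7 for EIF3B, 505 ± 55.3 for EIF2S1, 326 ± 53.4 for EIF3A and 208 ± 21.4 for EIF4E. EIF3B and EIF2S1 did not differ beyond their spread. EIF4E, the lowest of the 9, still lay above 81.5% of all tested features in membrane footprints per length.

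EEF1A1, the carrier of aminoacyl-tRNA, had the highest level of the 9 genes in all 3 readouts. In the membrane fraction it stood at 14075 and 13922 CPM (WT), 10376 and 11524 (UFM1-KO) and 21582 and 23528 (UFSP2-KO). In the cytosol the levels were 14795 and 16159 CPM (WT), 10207 and 13647 (UFM1-KO) and 22579 and 26449 (UFSP2-KO). In both fractions every UFM1-KO library was below every WT library, and every WT library below every UFSP2-KO library. EEF1A1 mRNA was at 14411 and 11910 CPM (WT), 13054 and 15655 (UFM1-KO) and 21495 and 19741 (UFSP2-KO). WT and UFM1-KO thus overlapped in mRNA, and UFSP2-KO stood above both. The gene spans chr6:73515750-73521032, and because near-identical processed copies exist in the genome, how the authors' counting placed shared reads is uncertain.

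EEF2, the translocase, had the widest separation between lines. Its membrane footprints were at 9065 and 8143 CPM (WT), 4913 and 4509 (UFM1-KO) and 13294 and 13226 (UFSP2-KO). Its cytosolic footprints were at 6043 and 6264 CPM (WT), 3625 and 3410 (UFM1-KO) and 8864 and 9723 (UFSP2-KO). Its mRNA was at 4067 and 4572 CPM (WT), 2502 and 3356 (UFM1-KO) and 6033 and 4698 (UFSP2-KO). EEF2 (chr19:3976056-3985463) was the only 1 of the 9 genes whose libraries kept the order UFM1-KO, WT, UFSP2-KO without overlap in all 3 readouts. How many of all features keep this order in all 3 was not counted, and only the shares for each readout alone are given below.

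EEF1G, a subunit of the eEF1B exchange complex (chr11:62559596-62573891), kept the same order in the membrane fraction, with 1131 and 1051 CPM (UFM1-KO), 1443 and 1453 (WT) and 1815 and 2005 (UFSP2-KO). In the cytosol it was at 1230 and 1220 CPM (UFM1-KO), 1342 and 1632 (WT) and 1606 and 2341 (UFSP2-KO), where WT and UFSP2-KO overlapped. EEF1G mRNA was at 2997 and 3701 CPM (UFM1-KO), 3490 and 3208 (WT) and 5341 and 4386 (UFSP2-KO), so that only UFSP2-KO stood apart.

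Among the initiation factors, EIF3B, a core subunit of eIF3 (chr7:2354086-2380745), was the gene that kept the same order of lines. Its membrane footprints were at 344 and 350 CPM (UFM1-KO), 430 and 408 (WT) and 550 and 569 (UFSP2-KO). Its cytosolic footprints were at 339 and 325 CPM (UFM1-KO), 365 and 438 (WT) and 452 and 552 (UFSP2-KO). Groups did not overlap in either fraction. Its mRNA, at 470 and 541 CPM (UFM1-KO), 566 and 497 (WT) and 739 and 605 (UFSP2-KO), overlapped between UFM1-KO and WT. EIF3A, the largest eIF3 subunit (chr10:119033670-119080817), did not follow it: its membrane footprints were at 392 and 495 CPM (WT), 423 and 431 (UFM1-KO) and 448 and 512 (UFSP2-KO), and each knockout overlapped WT. Its cytosolic footprints were at 221 and 261 CPM (WT), 242 and 291 (UFM1-KO) and 177 and 295 (UFSP2-KO), and its mRNA was at 423 and 391 CPM (WT), 521 and 493 (UFM1-KO) and 429 and 429 (UFSP2-KO). Only UFM1-KO mRNA and UFSP2-KO mRNA of EIF3A lay apart from WT, both above it.

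EIF4A1, the helicase of the cap complex (chr17:7572825-7579006), was nearly level across the lines, with membrane footprints at 2928 and 3136 CPM (WT), 2919 and 2873 (UFM1-KO) and 2974 and 3307 (UFSP2-KO). Its cytosolic footprints were at 4203 and 4755 CPM (WT), 3939 and 4296 (UFM1-KO) and 3860 and 4668 (UFSP2-KO), and overlapped in all lines. Its reads may be shared with its close paralog EIF4A2. EIF4E, the cap-binding protein (chr4:98879276-98929133), was also level in membrane footprints, at 38.0 and 44.0 CPM (WT), 37.7 and 37.6 (UFM1-KO) and 37.5 and 41.4 (UFSP2-KO). Its mRNA was at 119 and 75.1 CPM (WT), 125 and 98.0 (UFM1-KO) and 134 and 166 (UFSP2-KO). UFSP2-KO was above both other lines in EIF4E mRNA but not in its footprints.

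EIF2S1, the alpha subunit of eIF2 and the site of stress phosphorylation (chr14:67360328-67386516), had membrane footprints at 137 and 160 CPM (WT), 176 and 162 (UFM1-KO) and 112 and 145 (UFSP2-KO), where UFM1-KO stood just above WT and UFSP2-KO overlapped it. Its mRNA was at 101 and 74.7 CPM (WT), 126 and 115 (UFM1-KO) and 101 and 123 (UFSP2-KO), again with UFM1-KO above WT. PABPC1, the poly(A)-binding protein (chr8:100702916-100722088), has many near-identical copies and is uncertain for that reason. Its membrane footprints were at 478 and 562 CPM (WT), 428 and 409 (UFM1-KO) and 528 and 693 (UFSP2-KO), with UFM1-KO below WT and UFSP2-KO overlapping it. In the cytosol they were at 277 and 355 CPM (WT), 240 and 354 (UFM1-KO) and 405 and 509 (UFSP2-KO), with UFSP2-KO above the other lines. PABPC1 mRNA varied most between libraries of a group, from 294 to 557 CPM in WT and from 239 to 474 in UFM1-KO.

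**Figure D1:**
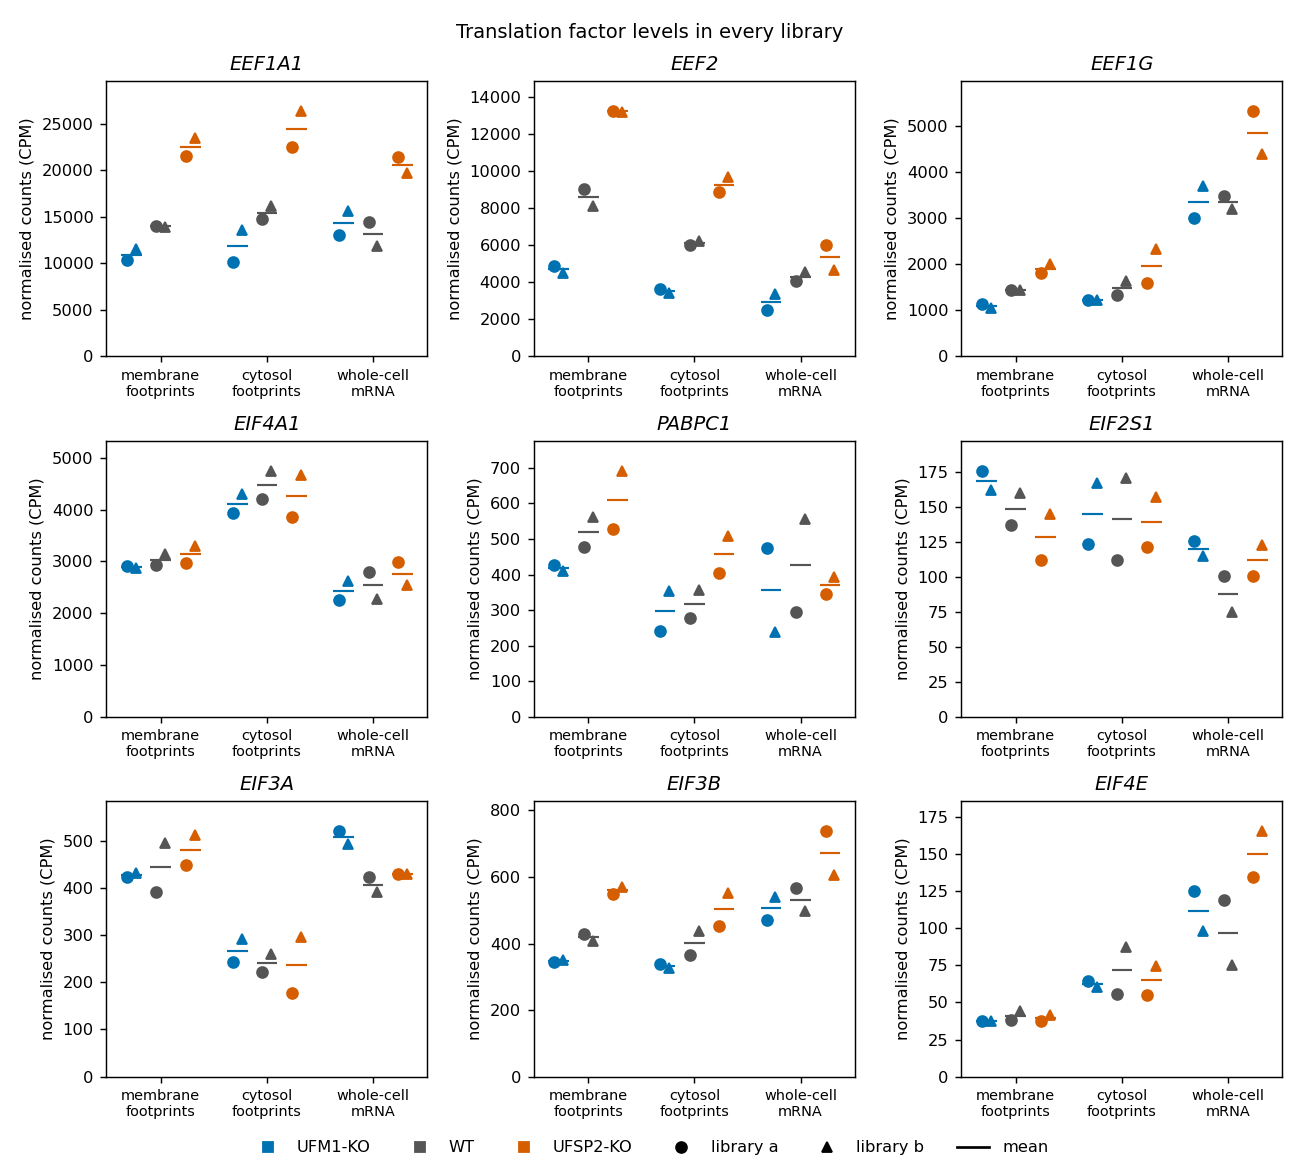
Normalised counts (CPM, linear axes from 0) of the 9 genes in each library, for membrane footprints, cytosol footprints and whole-cell mRNA. Colours mark the line, circles library a, triangles library b and lines the mean of the 2 libraries. EEF2 keeps the order UFM1-KO, WT, UFSP2-KO in all 3 readouts, from 4509 to 13294 CPM in membrane footprints, while EIF4A1 is nearly level across the lines.

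The order UFM1-KO below WT below UFSP2-KO, with no overlap of libraries, was kept by 4 of the 9 genes in membrane footprints (EEF1A1, EEF2, EEF1G and EIF3B), against 7.42% of all 11065 features. In cytosolic footprints 3 genes kept it (EEF1A1, EEF2 and EIF3B), against 4.93% of features. In mRNA 1 gene kept it, EEF2, against 6.08% of 13900 features. This order was looked for after the values had been seen, and no test was made of it.

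In UFM1-KO, EEF2 footprints fell in both fractions. Membrane footprints of EEF2 fell by 0.87 on the log2 scale (SE 0.15, edgeR adjusted p = 0.0028), or by 1.83-fold, and cytosolic footprints fell by 0.81 (SE 0.15, adjusted p = 0.0159), or by 1.75-fold. EEF2 was the 1 gene called in each fraction, where 1.26% of all features were called at the membrane and 0.85% in cytosol. The median of the 9 genes was -0.27 for membrane and -0.26 for cytosolic footprints, and the median of all features was 0.05 and 0.01. The tests of EEF1A1 did not pass, with log2 differences of -0.35 in membrane (adjusted p = 0.378) and -0.38 in cytosol (adjusted p = 0.35), nor did those of EEF1G, at -0.41 and -0.28. The other 6 genes lay between -0.32 (PABPC1) and 0.18 (EIF2S1) in membrane footprints and between -0.28 (EIF3B) and 0.14 (EIF3A) in cytosolic ones, with EIF4A1 at -0.07 and -0.12 and EIF4E at -0.14 and -0.26. The EEF2 call in the membrane fraction was lost without UFM1-KO library b (adjusted p = 0.0633) or WT library a (adjusted p = 0.0773), and the cytosolic call without either UFM1-KO library or WT library b, while the difference stayed between -0.94 and -0.68 in these and all other alternatives.

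In mRNA no gene was called between UFM1-KO and WT, where edgeR called 1.97% of features. EEF2, 1 of the 9, had an unadjusted p under 0.05 by edgeR, and DESeq2 also called 0 of them. The 1.97% belongs to the adjusted edgeR test and is no background for the unadjusted count. The share of all features at this unadjusted p is not given here, so the count shows no excess. EEF2 mRNA differed by -0.56 (SE 0.21, adjusted p = 0.188), EEF1A1 mRNA by 0.13 (SE 0.20) and EEF1G mRNA by 0.00 (SE 0.20). The mRNA of EIF2S1 differed by 0.46 (SE 0.22, adjusted p = 0.316). The other 5 genes lay between -0.26 (PABPC1) and 0.32 (EIF3A), with EIF3B at -0.07, EIF4A1 at -0.06 and EIF4E at 0.20. The median of the 9 genes was 0.00, and that of all features -0.01.

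In UFSP2-KO, EEF1A1 and EEF2 footprints rose in both fractions. In membrane footprints EEF1A1 rose by 0.69 on the log2 scale (SE 0.16, edgeR adjusted p = 0.0049), which is 61.1% more than in WT, and by 0.66 in the cytosol (SE 0.16, adjusted p = 0.0143), which is 58.4% more. EEF2 rose by 0.62 in the membrane fraction (SE 0.15, adjusted p = 0.00801) and by 0.59 in the cytosol (SE 0.15, adjusted p = 0.0234). These were the 2 genes called in each fraction, where 11.1% of all features were called at the membrane and 3.99% in cytosol. The median of the 9 genes was 0.23 and 0.32, against 0.01 and 0.02 over all features. EEF1G, at 0.40 and 0.41, and EIF3B, at 0.42 and 0.32, did not pass. The other 5 genes lay between -0.21 (EIF2S1) and 0.23 (PABPC1) in membrane footprints and between -0.17 (EIF4E) and 0.53 (PABPC1, adjusted p = 0.184) in cytosolic ones. The membrane call of EEF1A1 was lost without UFSP2-KO library b or WT library b (adjusted p = 0.0706 and 0.0589), that of EEF2 without either UFSP2-KO library or WT library b, and both cytosolic calls without either WT library.

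No gene was called in mRNA between UFSP2-KO and WT, where edgeR called 7.18% of features. At an unadjusted p under 0.05 the edgeR test held 3 of the 9 (EEF1A1, EEF1G and EIF4E), and DESeq2 called 1, EEF1A1. The 7.18% belongs to the adjusted edgeR test and is no background for these other counts. The matching shares of all features are not given here, so these counts show no excess among the genes. EEF1A1 mRNA differed by 0.65 (SE 0.20, adjusted p = 0.0565), about the size of its footprint difference, and it passed the threshold under 6 of 12 alternatives, among them leaving out WT library a. EEF1G mRNA differed by 0.54 (SE 0.20, adjusted p = 0.109) and EIF4E mRNA by 0.63 (SE 0.24, adjusted p = 0.124). EEF2 mRNA differed by 0.31 (SE 0.21, adjusted p = 0.375), and EIF2S1, EIF3B, EIF4A1 and EIF3A lay between 0.08 (EIF3A) and 0.35 (EIF2S1). The difference was above 0 for 8 of the 9 genes, with a median of 0.34 against -0.01 over all features, and PABPC1, at -0.21, was the exception. The comparisons of each knockout with WT share the WT libraries, so their values stand side by side here and are not independent.

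**Figure D2:**
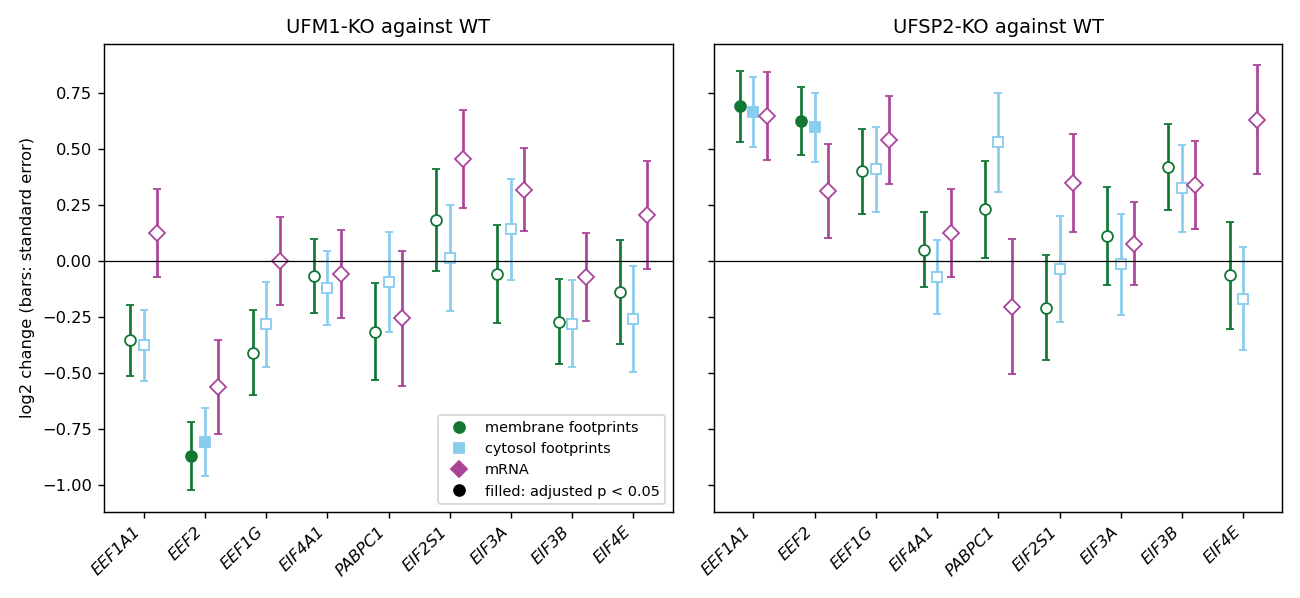
Log2 difference of each gene between UFM1-KO and WT (left) and UFSP2-KO and WT (right), in membrane footprints, cytosol footprints and mRNA, with bars for 1 standard error. Filled symbols passed the edgeR test at an adjusted p under 0.05. EEF2 is filled in both fractions of both panels, at -0.87 and -0.81 on the left and at 0.62 and 0.59 on the right, and EEF1A1 is filled on the right only.

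Set directly against each other, the knockouts differed in 4 of the 9 genes, the same 4 in each fraction, all lower in UFM1-KO. Of all features, 21.4% were called at the membrane and 12% in cytosol. EEF2 membrane footprints were 2.81-fold lower in UFM1-KO (log2 -1.49, SE 0.15, edgeR adjusted p = 9.48e-08) and cytosolic ones 2.64-fold lower (log2 -1.40, SE 0.16, adjusted p = 7.34e-07). EEF1A1 was 2.06-fold lower in the membrane fraction (log2 -1.04, SE 0.16, adjusted p = 3.32e-05) and 2.06-fold lower in the cytosol (log2 -1.04, SE 0.16, adjusted p = 7.89e-05). The calls of these 2 genes in both fractions, and that of EEF1G in the membrane fraction, held under all 12 alternatives, each single library left out included.

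EEF1G was 1.75-fold lower in the membrane fraction of UFM1-KO than of UFSP2-KO (log2 -0.81, SE 0.19, edgeR adjusted p = 0.00319) and 1.61-fold lower in the cytosol (log2 -0.69, SE 0.19, adjusted p = 0.0171). EIF3B was 1.61-fold lower in the membrane fraction (log2 -0.69, SE 0.19, adjusted p = 0.0111) and 1.52-fold lower in the cytosol (log2 -0.60, SE 0.19, adjusted p = 0.0411). PABPC1 missed the threshold in both, at -0.54 (adjusted p = 0.0734) and -0.62 (adjusted p = 0.0657), and passed it under 4 and 7 of 12 alternatives. EIF4A1 differed by -0.12 and -0.05, and its interval of 2 SE, from -0.45 to 0.21 in the membrane fraction, leaves room for a change of moderate size. EIF2S1, EIF3A and EIF4E lay between -0.17 (EIF3A) and 0.39 (EIF2S1) in membrane footprints and between -0.09 (EIF4E) and 0.16 (EIF3A) in cytosolic ones. The median of the 9 genes was -0.54 for membrane and -0.60 for cytosolic footprints, against 0.05 and 0.00 over all features. The membrane call of EIF3B was lost when any 1 of the 4 libraries was left out (highest adjusted p 0.0876), and the cytosolic calls of EEF1G and EIF3B without either UFM1-KO library or UFSP2-KO library b. The cytosolic EIF3B call was also lost with library totals as the scaling and with only the groups compared in the fit.

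In mRNA, EEF2 was the 1 gene called between the knockouts, where 15.9% of all features were called. It was 1.83-fold lower in UFM1-KO (log2 -0.87, SE 0.21, edgeR adjusted p = 0.0102), and the call was lost without UFM1-KO library a or UFSP2-KO library a (highest adjusted p 0.0808). EEF1A1 mRNA, at -0.52 (adjusted p = 0.0799), and EEF1G mRNA, at -0.54 (adjusted p = 0.0742), lay near the threshold. EIF3B mRNA was at -0.41, EIF4E at -0.43, EIF4A1 at -0.18, PABPC1 at -0.05, EIF2S1 at 0.11 and EIF3A at 0.24, and none of these passed. The median of the 9 genes was -0.41 and that of all features 0.01.

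Whether footprints changed by more than the mRNA was asked with a model over all 18 libraries. None of the 9 genes was called for either knockout in either fraction. Over all features edgeR called 0% for UFM1-KO and 0.0792% for UFSP2-KO with membrane footprints, and 0% and 0.0158% with cytosolic ones. At an unadjusted p under 0.05 the edgeR test held 1 of the 9 genes in the UFM1-KO membrane fraction (EEF1A1) and 0 in the UFM1-KO cytosol. In UFSP2-KO it held 1 in the membrane fraction (EIF4E) and 1 in the cytosol (EIF4E). DESeq2 called 0 in each. The shares above belong to the adjusted edgeR test and are no background for the unadjusted counts. Without the matching shares of all features, which are not given here, the unadjusted counts show no excess. EEF1A1 footprints less mRNA differed by -0.53 in the UFM1-KO membrane fraction (SE 0.25, adjusted p = 0.983) and by 0.00 in UFSP2-KO (SE 0.25, adjusted p = 1). For EEF2 the values were -0.36 (SE 0.26) and 0.27 (SE 0.26), and 2 SE on each side span -0.88 to 0.16 and -0.25 to 0.79. Both intervals hold 0 and also hold the size of the EEF2 mRNA difference of that knockout. EIF4E, with its higher mRNA in UFSP2-KO, had values of -0.73 (SE 0.35) at the membrane and -0.74 (SE 0.35) in cytosol.

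Footprints of a fraction per whole-cell mRNA ranged widely within the group. In the WT cytosol EIF4A1 had 4.04 times the median ratio of all 12629 features (log2 2.01, SE 0.19), above 94.6% of them. EIF2S1 had 3.75 times the median, EEF2 had 3.26 times and EEF1A1 had 2.68 times. EEF1G, at 1.02 times the median, was the lowest of the 9, and EIF3A, at 1.36 times, was next. On the log2 scale eEF1A and the eEF1B subunit that EEF1G encodes stood at 1.42 (SE 0.18) and 0.02 (SE 0.20), further apart than these errors. In the WT membrane fraction EEF2 was highest, at 3.43 times the median of that fraction, and EIF4E and EEF1G were lowest, at 0.731 and 0.743 times. The mRNA level comes from whole cells, so it is the same denominator for both fractions. Ribosome load on a message and the division of that message between the fractions therefore cannot be told apart in these ratios. EIF4A1, for example, was at 4.04 times the median in the WT cytosol and at 2.05 times in the WT membrane fraction.

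**Figure D3:**
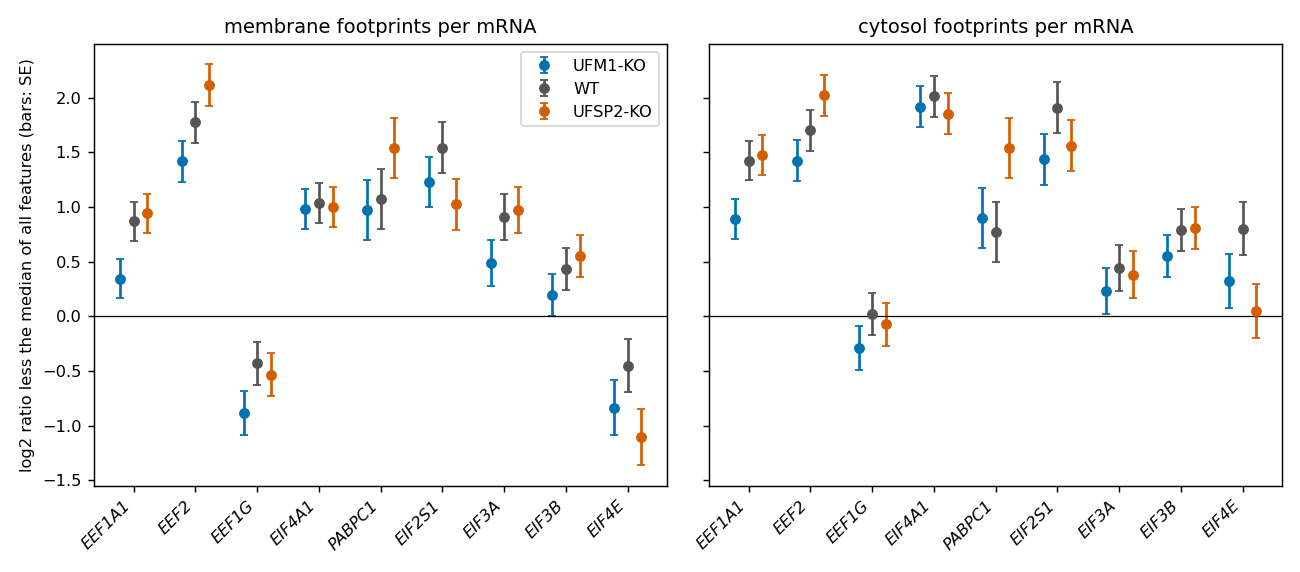
Log2 ratio of footprints to mRNA for each gene, less the median of all 12629 features in the same line and fraction, with bars for 1 standard error; colours mark the lines. EEF1G lies near or below 0 in each line and fraction, at 0.02 in the WT cytosol, while EIF4A1 lies between 1.86 and 2.01 in the cytosol of the 3 lines.

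The ratio of membrane to cytosol footprints differed by gene among these messages for soluble proteins. Each level is a share of its own library, so the ratio does not give how a message was divided between fractions. In WT, 5 of the 9 genes were called between membrane and cytosol, 3 higher in the membrane fraction and 2 lower, where 37.5% of all features were called. In the membrane fraction EIF3A was 1.84-fold higher (log2 0.88, SE 0.22, edgeR adjusted p = 0.00234), PABPC1 was 1.64-fold higher (log2 0.71, SE 0.22, adjusted p = 0.011) and EEF2 was 1.40-fold higher (log2 0.48, SE 0.15, adjusted p = 0.0127). EIF4E was 1.80-fold lower (log2 -0.85, SE 0.23, adjusted p = 0.0035) and EIF4A1 was 1.48-fold lower (log2 -0.56, SE 0.17, adjusted p = 0.00782). EEF1A1, at -0.14, EEF1G, at -0.04, EIF2S1, at 0.05, and EIF3B, at 0.06, did not pass. Among all features, the WT ratios of the 5 called genes lay at percentiles 75.6 (EIF3A), 73.8 (PABPC1), 69.8 (EEF2), 21.7 (EIF4A1) and 10.5 (EIF4E). Each of the 5 calls was lost without 1 or 2 of the 4 WT libraries: EIF3A without membrane b, PABPC1 without membrane b or cytosol a, EEF2 without membrane a or cytosol a, EIF4E without cytosol b and EIF4A1 without membrane a or cytosol b.

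The knockouts showed like ratios, with EIF3A and EEF2 higher and EIF4E and EIF4A1 lower in the membrane fraction of each. In UFM1-KO these were the 4 calls of 9 genes, against 28.9% of all features, with log2 ratios of 0.68 for EIF3A (edgeR adjusted p = 0.0215), 0.42 for EEF2 (0.0373), -0.73 for EIF4E (0.0211) and -0.51 for EIF4A1 (0.02). In UFSP2-KO the same 4 genes were called, against 36.9% of all features, with 1.003 for EIF3A (adjusted p = 6.27e-04), 0.51 for EEF2 (0.00827), -0.75 for EIF4E (0.0156) and -0.44 for EIF4A1 (0.0373). PABPC1 had ratios of 0.49 (adjusted p = 0.104) and 0.41 (adjusted p = 0.149) and did not pass. The split of calls depended on the scaling. With library totals alone the median of all features moved from 0.02 to -0.27 (UFM1-KO) and from 0.01 to -0.18 (UFSP2-KO), and the calls became 0 higher and 4 lower for UFM1-KO and 1 higher and 3 lower for UFSP2-KO. The number of calls in UFM1-KO was 0 or 1 without either membrane library or cytosol library a, and that in UFSP2-KO was 2 without either membrane library or cytosol library b.

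A shift of this ratio from WT to a knockout was called for 0 of the 9 genes by edgeR and by DESeq2, in either knockout, and none had an unadjusted p under 0.05. Over all features edgeR called 0.00904% for UFM1-KO and 0.00904% for UFSP2-KO. The change of the EEF2 ratio was -0.06 in UFM1-KO (2 SE on each side span -0.49 to 0.37) and 0.03 in UFSP2-KO (-0.40 to 0.46). For PABPC1, the gene with the lowest value in both, the change was -0.22 (-0.84 to 0.40) and -0.30 (-0.92 to 0.32).

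The ratios ran with coding length. EIF4E, the shortest coding sequence at 197 deposited codons, had the lowest ratio in each line, and EIF3A, the longest at 1362, the highest. Spearman's rho of the ratio with length over the 9 genes was 0.833 (WT), 0.767 (UFM1-KO) and 0.95 (UFSP2-KO), and the 9 points of a line share their libraries. Over all 11065 features rho was 0.335, 0.247 and 0.365. Over the features less than 2-fold higher in the membrane fraction it was 0.508 (WT, 8471 features), 0.372 (UFM1-KO, 8554) and 0.549 (UFSP2-KO, 8456). A rise with length was thus not particular to these genes. With the trend of all features over length subtracted, the calls of EEF2, EIF3A and EIF4E were lost in each line. Those of EIF4A1 in each line and of PABPC1 in WT stayed. The EIF3A ratio was then 0.48 for WT (edgeR adjusted p = 0.0905), 0.33 for UFM1-KO and 0.45 for UFSP2-KO.

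**Figure D4:**
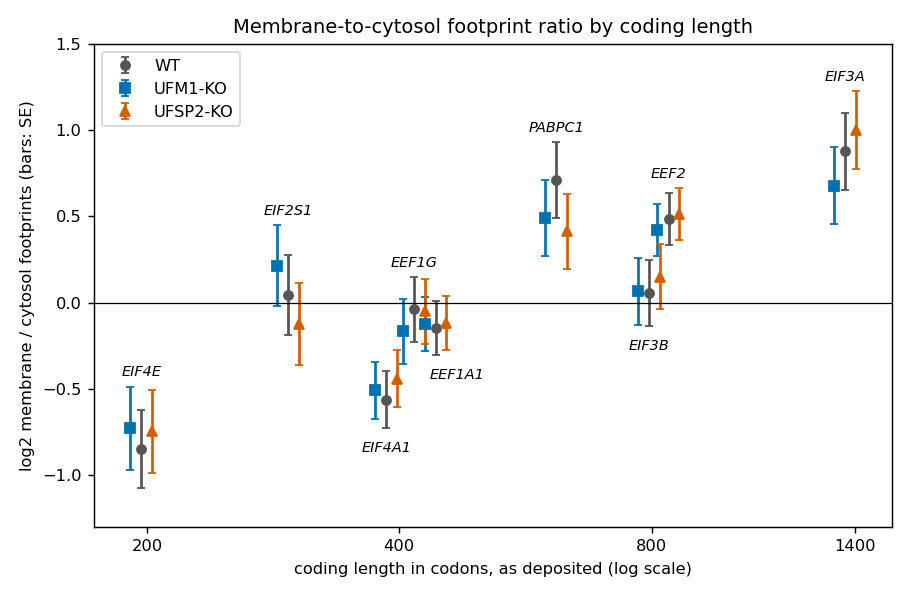
Log2 ratio of membrane to cytosol footprints of the 9 genes in the 3 lines against deposited coding length in codons (log axis), with bars for 1 standard error; points of a gene are set slightly apart for sight. EIF4E, at 197 codons, has the lowest ratios and EIF3A, at 1362 codons, the highest.

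As a share of all counts in merged features, the 9 genes together held 2.70% and 2.65% of membrane footprints (WT), 1.88% and 2.06% (UFM1-KO) and 3.79% and 3.93% (UFSP2-KO). Of cytosolic footprints their share was 2.98% and 3.01% (WT), 2.30% and 2.69% (UFM1-KO) and 4.19% and 4.47% (UFSP2-KO). In mRNA the shares were 2.71% and 2.49% (WT), 2.29% and 2.67% (UFM1-KO) and 3.48% and 3.23% (UFSP2-KO). Lines did not overlap in footprints of either fraction, while WT and UFM1-KO overlapped in mRNA. EEF1A1 and EEF2 made up most of each share, with means of 1.31% and 0.803% in the WT membrane fraction (n = 2), and no test was made of the sum.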

How the data were processed

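Raw counts per transcript were deposited by the authors for 12 footprint and 6 mRNA libraries, with a length column that the authors gave beside each count. Per the submitters' processing notes, TopHat2 2.1.1 placed the reads on GRCh38. Which program counted them, and on which annotation, is not given in the sources used here. Entries with identical counts in every library were merged, on the untested reading that reads shared by isoforms were counted for each, which left 14377 footprint and 15444 mRNA features (the latter from 25629 entries matched between assays by ID and length). The edgeR 4.0.16 quasi-likelihood test in R 4.3.3 followed filterByExpr (minimum count 10) and TMM scaling, with 1 coefficient per group: 11065 footprint, 13900 mRNA and 12629 joint features were tested, two-sided. SE came from the F statistic. The code was run on simulated counts with a single spread for all features and larger changes than most of those reported here. How well it recovers changes of the sizes reported was therefore not tested. Alternatives were RLE or library-size scaling, no filter, DESeq2 1.42.0, a replicate block, unmerged entries, a removed length trend (lowess span 0.5), only the groups compared, and each library left out.

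Every one of the 9 genes was tested in each comparison, and those without a printed value lie in the printed ranges or, for the combined footprint and mRNA model and the ratio change, were not called; the genes and motifs were chosen with earlier results of these data known. The labels do not say that libraries came from separate cultures, so p-values measure only the spread between these libraries. The tables at hand do not pair transcript IDs with gene symbols, so other genes of the pathway, the targeted genes and fraction markers were not analysed here. Gene positions and promoters are from RefSeq (GRCh38.p14).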

Additional observations from a re-analysis of the deposited data

Results flagged for a closer look

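The knockouts differed from each other, by a direct test with edgeR, in 9 values. In membrane footprints UFM1-KO less UFSP2-KO was -1.04 for EEF1A1, -1.49 for EEF2, -0.81 for EEF1G and -0.69 for EIF3B on the log2 scale. In cytosolic footprints it was -1.04 for EEF1A1, -1.40 for EEF2, -0.69 for EEF1G and -0.60 for EIF3B. In mRNA it was -0.87 for EEF2. All 9 were chosen because the effect of each knockout, measured against the same WT libraries, differed beyond the threshold, and EEF2 was lower than WT in one line and higher in the other in both fractions.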

How the results depend on the processing

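No difference that passed its test changed sign under any alternative. The shares of all features given above belong to the main fit and are no background for the counts under alternatives. Shares under each alternative are not given here. The counts below therefore describe how the calls moved and not how the genes stand against all features. The counts of called genes moved by more than 1.5 times as follows. Between membrane and cytosol, the 5 calls in WT became 2 with the length trend removed and 3 with any WT library left out; the 4 in UFM1-KO became 2 with DESeq2, 1 with the length trend removed and 0 to 3 with a library left out; the 4 in UFSP2-KO became 2 with DESeq2, 1 with the length trend removed, 2 with only the groups compared and 2 to 3 with a library left out. Fitted on only the groups compared, the membrane fraction gave 2 UFM1-KO calls and 4 UFSP2-KO calls. With a library left out, calls against WT ranged from 0 to 1 (UFM1-KO) and from 0 to 2 (UFSP2-KO) in each fraction, and those between the knockouts from 2 to 5 in the cytosol and from 0 to 1 in mRNA. A lone library left in a group is assumed to vary like the others. In UFSP2-KO mRNA the count was 1 without a filter, with DESeq2, with entries not merged, with the length trend removed and with only the groups compared, and 0 to 1 with a library left out.

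The replicate block by library letter gave 5 calls in each line between membrane and cytosol, 3 in the UFSP2-KO cytosol, and 5 in each fraction between the knockouts. The shares of all features called under the block are not given here, so these counts are no result about the genes as a group. The gene it added was PABPC1, among others between membrane and cytosol in UFM1-KO (adjusted p = 0.0138) and UFSP2-KO (0.0457) and in the UFSP2-KO cytosol (0.0477). The labels give libraries of a letter nothing else in common; their deviations correlated with r from 0.0496 to 0.331 over 7797 footprint features and from -0.68 to 0.0601 over 9784 mRNA features, and with 2 letters these values do not settle whether the samples are paired. Over all deposited entries in place of merged features, the 9 genes held 1.80% and 1.97% of WT membrane and cytosol counts, 1.34% and 1.65% of those of UFM1-KO, 2.57% and 2.77% of those of UFSP2-KO, and 0.947%, 0.905% and 1.21% of WT, UFM1-KO and UFSP2-KO mRNA. With library totals alone the median of all features moved from 0.01 to 0.15 for UFM1-KO against WT and from 0.00 to 0.14 for UFM1-KO against UFSP2-KO in the cytosol, and from -0.01 to -0.14 for UFSP2-KO against WT in mRNA. EIF4E has the fewest counts, with 56 to 379 per footprint library.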
